A study of Mus musculus domesticus with 6 samples.

Results

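The genes described are 10 members of the signalling route that starts at the receptors Kit and Epor: the receptors Kit, Epor, Il3ra and Csf2rb, the kinases Jak2 and Lyn, the adaptors Gab1 and Grb2, and the transcription factors Stat5a and Stat5b. They were chosen by symbol, as receptors and signalling proteins close to them, and all 10 were found among the 55359 gene entries of each table. RNA was sequenced from 6 samples of BFU-E, the earliest committed red cell progenitors, taken from mouse fetal liver at E14.5, in mid-gestation. The 3 Cre-positive samples were Exosc3 fl/fl Cre+, and the 3 Cre-negative samples were Exosc3 fl/fl Cre-. Both groups carry floxed Exosc3 alleles, and Exosc3 encodes a subunit of the RNA exosome, which degrades and trims RNA. Cre was driven by Vav1, a promoter active throughout blood cells, so recombination is not limited to BFU-E. Every sample was sorted as GFP+ Lin- Kit+ cells among the 10% lowest for CD24/71 staining, so Kit protein was part of the gate in both groups; what GFP marks is not stated. The design counts 2 samples from each of 3 litters. The labels do not say whether a sample was 1 embryo or several, nor which numbers share a litter.

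Kit is the receptor tyrosine kinase for stem cell factor, and Epor is the receptor for erythropoietin. Epor has no kinase of its own and relies on the bound kinase Jak2, which phosphorylates Stat5a and Stat5b so that they enter the nucleus and activate genes of survival and growth. Grb2 and Gab1 link activated receptors to the RAS and PI3-kinase branches. In the fetal liver, BFU-E depend mainly on Kit, and later erythroid progenitors come to depend on Epor.

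Library totals ran from 89629949 to 124931215 expected counts in Cre-positive samples and from 96780246 to 122278764 in Cre-negative samples. Exosc3 had 26.4 ± 4.07 CPM (counts-per-million) in Cre-positive samples and 48.1 ± 3.80 CPM in Cre-negative samples (SD, n = 3 each), and each Cre-positive library was below each Cre-negative library. That difference did not pass the test over all genes (log2 fold change -0.87 ± 0.22 SE, edgeR adjusted p = 0.259). The eGFP entry was higher in Cre-positive samples and did not pass either (log2 fold change 5.48 ± 1.16 SE, edgeR adjusted p = 0.187). Its relation to the GFP gate was not tested. The erythroid markers Gata1 and Klf1 were present in all libraries, at 101 to 107 and 228 to 327 CPM in Cre-positive samples and at 83.3 to 128 and 224 to 269 CPM in Cre-negative samples. The hepatocyte genes Afp and Ttr were at 0 throughout. Alb had 89 reads in Cre-positive library 1 and 104 in Cre-negative library 1, and Apoa1 had 66 in Cre-negative library 3. Summed hepatocyte and stromal markers ran from 6.39 to 22.4 CPM in Cre-positive samples and from 20.1 to 36.4 CPM in Cre-negative samples. Most of this sum was Pecam1, with 5.68, 11.3 and 18.4 CPM in Cre-positive libraries, against 16.7, 20.4 and 31.3 CPM in Cre-negative libraries. Summed neutrophil and monocyte markers ran from 242 to 537 CPM in Cre-positive samples and from 595 to 1560 CPM in Cre-negative samples. Mpo made up most of this sum, with 226, 209 and 481 CPM in Cre-positive libraries, against 859, 512 and 1365 CPM in Cre-negative libraries. Of the 10 tested markers in that list, 9 had a log2 fold change below 0 and 1 above. Summed lymphoid markers ran from 8.63 to 33.0 CPM in Cre-positive samples and from 78.9 to 218 CPM in Cre-negative samples. In these bulk samples, fewer cells of a type and less RNA per cell cannot be told apart.

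None of the 10 genes passed edgeR's quasi-likelihood test at an adjusted p of 0.05, where 16 of 13117 tested genes, or 0.122%, did so. At an unadjusted p under 0.05, 2 of the 10 were higher in Cre-positive samples, Stat5b and Gab1, and 0 were lower; over all tested genes 8.23% lay under that p. The groups did not overlap for 2 of the 10, Stat5b, which was higher in Cre-positive samples, and Kit, which was lower; over all tested genes 15.2% were separated in this way. DESeq2 called 0 of the 10 and 3.5% of the genes it gave an adjusted p. The median log2 fold change was 0.02 over the 10 genes, with 5 above and 5 below 0, and -0.01 over all tested genes. Both the count of calls and the median thus lay near those of the whole table.

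**Figure D1:**
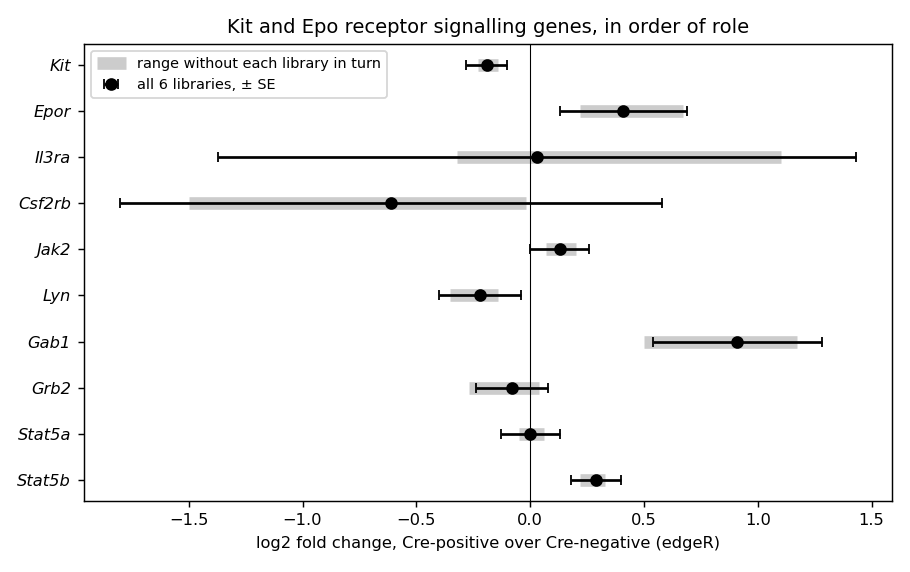
Log2 fold change of each gene, Cre-positive over Cre-negative (x axis), with the genes in order of role down the page; points and whiskers are edgeR estimates ± SE from 6 libraries, and grey bars span the values with each library left out in turn. Kit, Jak2, Lyn, Grb2, Stat5a and Stat5b have narrow whiskers. Those of Il3ra and Csf2rb are more than 1 log2 unit long on each side.

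Levels of different genes were compared in TPM (transcripts-per-million), which are scaled by transcript length. Ordered by mean TPM over the 6 libraries, Kit stood first (lowest 79.9, median 116, highest 130.1 TPM) and Grb2 second (53.0, 99.5 and 180.5 TPM). These neighbours overlapped. Stat5a (35.2, 39.7 and 60.01 TPM), Epor (24.8, 39.7 and 55.3 TPM), Stat5b (28.4, 38.8 and 47.5 TPM) and Jak2 (27.6, 30.9 and 32.02 TPM) followed, each overlapping the next, although the ranges of Stat5a and Jak2 did not overlap. Lyn lay at 18.7, 21.99 and 31.3 TPM, overlapping Jak2. The order was not the same in each group: Kit averaged 99.6 TPM and Grb2 85.5 TPM in Cre-positive samples, against 121 TPM for Kit and 126 TPM for Grb2 in Cre-negative samples. Epor and Stat5b, at 48.6 and 41.99 TPM, were above Stat5a, at 37.7 TPM, in Cre-positive samples, while Epor at 32.8 TPM and Stat5b at 32.7 TPM were below Stat5a, at 50.1 TPM, in Cre-negative samples. The lowest over all libraries were Gab1 (3.87, 5.74 and 41.3 TPM), Csf2rb (0.02, 5.90 and 37.5 TPM) and Il3ra (0.91, 2.53 and 8.28 TPM), which overlapped one another. The top TPM of Gab1 and of Csf2rb came from 1 Cre-positive library each, in which most of the gene's transcripts were assigned to short forms, as given with each gene.

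Kit, the receptor for stem cell factor, on chromosome 5, had 334, 348 and 355 CPM in the 3 Cre-positive libraries, against 375, 385 and 426 CPM in the 3 Cre-negative libraries. All Cre-positive values lay below all Cre-negative values. The means were 346 ± 10.5 CPM in Cre-positive samples and 395 ± 26.7 CPM in Cre-negative samples (SD, n = 3 each), a ratio of 0.875. This difference, -0.19 ± 0.09 (SE) on the log2 scale, did not pass (edgeR adjusted p = 0.614). In TPM the groups overlapped, with 89.4, 79.9 and 129.6 TPM in Cre-positive libraries, against 130.1, 107 and 125 TPM in Cre-negative libraries. Kit has 8 annotated transcripts of 354 to 5241 bases, and the mean length to which its reads were assigned ran from 3378 to 5181 bases in Cre-positive libraries and from 3551 to 4345 bases in Cre-negative libraries. Since cells were gated on Kit protein, the Kit level describes cells already selected for it. Mast cells also express Kit. Of 11 mast cell, basophil and eosinophil markers, 7 were at 0 in all 6 libraries, Fcer1a, Mcpt8 and Tpsb2 among them. Cpa3, a mast cell protease, had 121, 195 and 416 reads in Cre-positive libraries, against 64, 276 and 1175 reads in Cre-negative libraries. Hdc had 109, 141 and 878 reads in Cre-positive libraries, against 449, 0 and 123 reads in Cre-negative libraries. In Cre-positive libraries Ms4a2 had 0, 89 and 199 reads and Cma1 had 77, 0 and 0 reads. Both were at 0 in all Cre-negative libraries. The 11 markers summed to 2.47 to 12.9 CPM in Cre-positive samples and 2.63 to 10.4 CPM in Cre-negative samples. Their part in the Kit values was not tested.

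**Figure D2:**
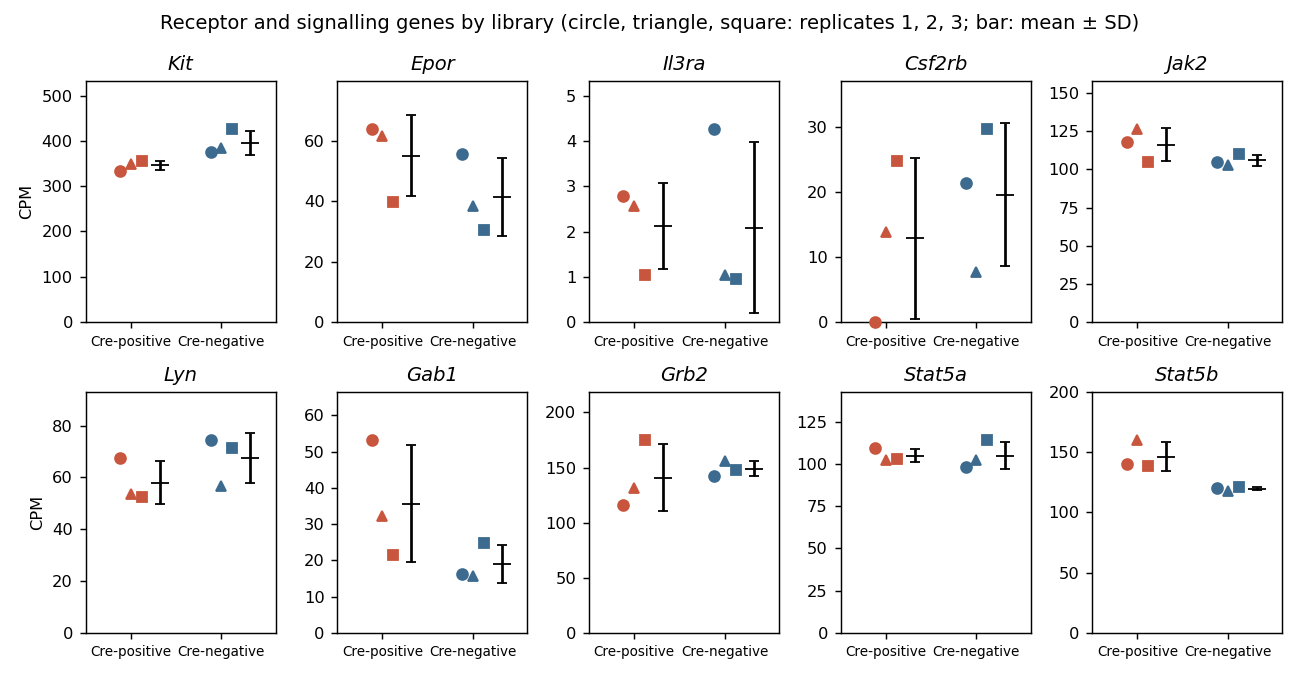
CPM of each of the 10 genes in each library (y axes, separate scales starting at 0), Cre-positive libraries on the left of each panel and Cre-negative libraries on the right, with black bars for the mean ± SD of each group. Kit and Stat5b are the panels without overlap between the groups, and Csf2rb is near 0 in Cre-positive library 1 alone.

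Epor, the erythropoietin receptor, on chromosome 9, had 63.8, 61.6 and 39.6 CPM in Cre-positive libraries, against 55.7, 38.4 and 30.5 CPM in Cre-negative libraries. Cre-positive libraries 1 and 2 were above all others, and Cre-positive library 3 lay among the Cre-negative values. The group means were 55.0 ± 13.4 CPM in Cre-positive samples and 41.5 ± 12.9 CPM in Cre-negative samples (SD, n = 3 each). Its log2 fold change, 0.41 ± 0.28 (SE), did not pass (edgeR adjusted p = 0.859), and it ranged from 0.22 to 0.67 with 1 library left out.

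The form of Epor RNA to which reads were assigned differed between the groups. Epor has exactly 2 transcripts in the GENCODE M21 annotation (GRCm38), so the gene's mean transcript length gives the share of each. Epor-201 has 1761 bases and 8 exons and encodes the full receptor of 507 codons. Epor-202 has 659 bases and 3 exons. It begins 228 bases upstream of exon 2, inside intron 1, and then shares exons 2 and 3 and part of exon 4. Its annotated start codon is in frame with Epor-201 at codon 72 of that transcript. The junction of exons 1 and 2, which Epor-202 lacks, is shown here at coding bases 101 to 130 of Epor-201, with the first 15 bases of exon 2 in capitals.
Epor-201 junction: agtttgagagcaaagCGGCCCTGCTGGCAT

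The mean Epor transcript length was 1587, 1579 and 1567 bases in Cre-positive libraries, against 1761, 1761 and 1761 bases in Cre-negative libraries. Epor-202 therefore made up 15.8%, 16.5% and 17.6% of Epor transcripts in Cre-positive libraries, against 0%, 0% and 0% in Cre-negative libraries. Every Cre-positive library had the short form, and none was assigned in any Cre-negative library. The mean share was 16.6% ± 0.888 in Cre-positive samples and 0% in Cre-negative samples (SD, n = 3 each), and with 3 samples a group an exact two-sided permutation test cannot go below p = 0.1. The share corresponds to 333, 240 and 216 reads of 7920, 5452 and 4563 Epor reads in Cre-positive libraries, against 0 of 5362, 4021 and 3790 reads in Cre-negative libraries. A count of 0 there allows a share of up to 0.239%, 0.319% and 0.337% of transcripts, a limit set at 3 reads. Intervals and limits of this kind cover read counting only, since PCR copies are not independent molecules.

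Epor-201 itself stood at 46.6, 45.9 and 29.4 TPM in Cre-positive libraries, against 43.7, 30.0 and 24.8 TPM in Cre-negative libraries, and the groups overlapped. The means of this full-length form were 40.6 ± 9.74 TPM in Cre-positive samples and 32.8 ± 9.75 TPM in Cre-negative samples (SD, n = 3 each). Epor-202 added 8.73, 9.10 and 6.26 TPM in Cre-positive libraries. The separation by form was thus larger than that of the gene's count. The pattern was chosen after its values were seen. Of 9167 tested genes with several annotated transcripts and reads in every library, 8.49% also had groups that did not overlap in length. Of these, 385 were longer and 393 shorter in Cre-positive samples. These values rest on the assignment of reads to transcripts by RSEM, and reads from unspliced Epor RNA over intron 1 and reads from Epor-202 cannot be told apart in them.

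**Figure D3:**
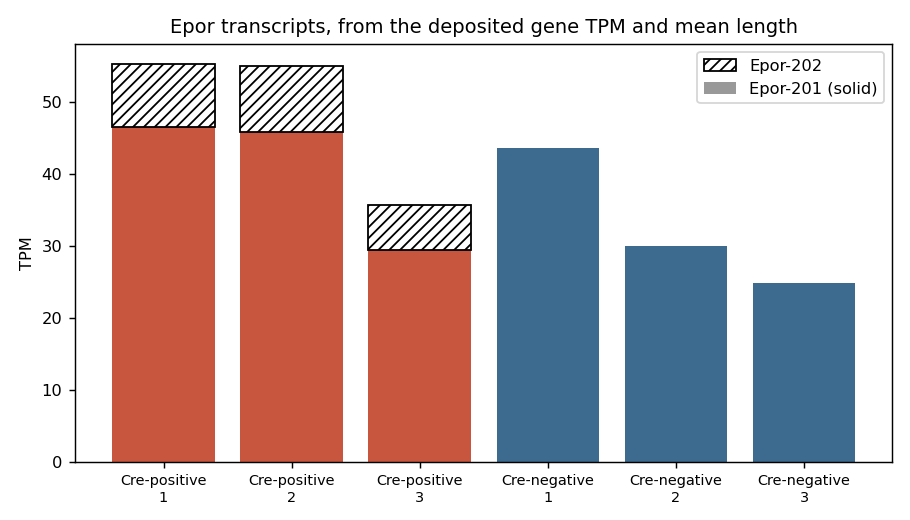
Epor TPM (y axis) in each library, stacked as Epor-201 (solid) and Epor-202 (hatched), with the 3 Cre-positive libraries on the left and the 3 Cre-negative libraries on the right. Epor-202 adds 6.26 to 9.10 TPM in the Cre-positive libraries and 0 in the Cre-negative libraries, while the Epor-201 levels overlap.

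Il3ra, the ligand-binding chain of the interleukin-3 receptor, on chromosome 14, had 2.78, 2.57 and 1.04 CPM in Cre-positive libraries, against 4.26, 1.04 and 0.942 CPM in Cre-negative libraries. Cre-negative library 1 was highest and Cre-negative library 3 lowest, so that one group spanned the other. The log2 fold change was 0.03 ± 1.40 (SE; edgeR adjusted p = 0.999), and it ran from -0.32 to 1.10 with 1 library left out. At 109 to 410 reads per library, the SE of this gene's fold change exceeded 1 log2 unit.

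Csf2rb, the signalling chain shared by the receptors for interleukin-3, interleukin-5 and GM-CSF, on chromosome 15, had 0.0886, 13.8 and 24.7 CPM in Cre-positive libraries, against 21.4, 7.77 and 29.6 CPM in Cre-negative libraries. Cre-positive library 1 had 11 reads, and the other 5 libraries had 815 to 3681. A log2 fold change of -0.61 ± 1.19 (SE) did not pass (edgeR adjusted p = 0.994) and ran from -1.50 without Cre-positive library 3 to -0.02 without Cre-positive library 1. It was -0.99 without Cre-negative library 2 and -0.18 without Cre-negative library 3. With effective transcript lengths as offsets it was 1.46. In Cre-positive library 3 the mean transcript length was 1016 bases, and at least 60.8% of Csf2rb transcripts there were assigned to 4 forms under 400 bases.

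Csf2rb2, a paralog on the same chromosome, encodes an interleukin-3-specific signalling chain found in mice. The coding sequences of Csf2rb2-201 and Csf2rb-201 were identical at 92.9% of 2694 aligned positions, with a longest identical run of 242 bases. Reads that lie within identical stretches can be assigned to either gene, and the share of such reads was not measured. The 60-base window with the most differences is shown for both, with the 13 mismatched bases in capitals, because it marks where reads could tell the genes apart. It covers coding bases 307 to 366 of Csf2rb2-201 and 304 to 363 of Csf2rb-201 (GENCODE M21 transcripts, GRCm38).
Csf2rb2-201: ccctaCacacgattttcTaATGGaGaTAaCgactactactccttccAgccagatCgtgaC
Csf2rb-201: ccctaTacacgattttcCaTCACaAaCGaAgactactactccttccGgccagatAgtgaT

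Csf2rb2 had 0, 0 and 0 reads in Cre-positive libraries, against 243, 201 and 612 reads in Cre-negative libraries. Every Cre-negative library had the gene and no Cre-positive library did, which puts Csf2rb2 at least 111-fold lower in Cre-positive samples when each library's floor is set at 3 counts. Csf2rb2 missed the threshold in edgeR (adjusted p = 0.235) and passed it in DESeq2 (adjusted p = 6.33e-06). Over the alternatives that kept the gene apart from Csf2rb, its adjusted p ranged from 6.33e-06 to 0.571, the highest in edgeR without Cre-positive library 2. The floor covers read counting only: 2095 genes were seen in a single library, with a median of 108 reads there. As reads may be split between the paralogs, both were also summed, giving 0.0886, 13.8 and 24.7 CPM in Cre-positive libraries, against 23.9, 9.69 and 34.6 CPM in Cre-negative libraries. The summed groups overlapped (log2 fold change -0.82 ± 1.18 SE, edgeR adjusted p = 0.979). Csf2rb2 took 0%, 0% and 0% of the pair's reads in Cre-positive libraries and 10.6%, 19.8% and 14.3% in Cre-negative libraries.

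Jak2, the kinase bound to Epor and to the Csf2rb chain, on chromosome 19, had 118, 126 and 105 CPM in Cre-positive libraries, against 105, 103 and 110 CPM in Cre-negative libraries. The groups overlapped, with Cre-positive library 3 among the Cre-negative values. Means were 116 ± 11.0 CPM in Cre-positive samples and 106 ± 3.77 CPM in Cre-negative samples (SD, n = 3 each), with a log2 fold change of 0.13 ± 0.13 (SE; edgeR adjusted p = 0.941). In TPM its range was the narrowest of the 10 genes, 27.6 to 32.02 TPM over all 6 libraries.

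Lyn, a Src family kinase that acts downstream of both receptors, on chromosome 4, had 67.7, 53.8 and 52.5 CPM in Cre-positive libraries, against 74.5, 56.7 and 71.4 CPM in Cre-negative libraries. Cre-positive libraries 2 and 3 were lowest, and Cre-positive library 1 lay among the Cre-negative values. Its log2 fold change was -0.22 ± 0.18 (SE; edgeR adjusted p = 0.915). Its mean transcript length was 3451, 3463 and 3453 bases in Cre-positive libraries, against 3056, 3443 and 2982 bases in Cre-negative libraries, which did not overlap. Lyn is also abundant in myeloid and B-lineage cells, whose marker sums were lower in Cre-positive samples, and their part in the Lyn values was not tested.

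Gab1, the docking adaptor, on chromosome 8, had 53.2, 32.2 and 21.4 CPM in Cre-positive libraries, against 16.3, 15.7 and 24.9 CPM in Cre-negative libraries. Cre-positive libraries 1 and 2 were highest, and Cre-positive library 3 lay below Cre-negative library 3. The means were 35.6 ± 16.2 CPM in Cre-positive samples and 19.0 ± 5.16 CPM in Cre-negative samples (SD, n = 3 each), a ratio of 1.88. The fold change on the log2 scale, 0.91 ± 0.37 (SE), did not pass after adjustment (edgeR adjusted p = 0.552) and was 0.50 without Cre-positive library 1. In Cre-positive library 2 the mean Gab1 transcript length was 1174 bases, and 83.5 to 83.9% of its transcripts were assigned to Gab1-203, a processed transcript of 445 bases. In the other 5 libraries that form made up at most 2.53%. Gab1 therefore had 41.3 TPM in Cre-positive library 2, against 3.87 to 12.8 TPM elsewhere, and the log2 fold change was 2.11 with effective transcript lengths as offsets.

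Grb2, the adaptor that brings the RAS activator SOS to receptors, on chromosome 11, had 116, 132 and 175 CPM in Cre-positive libraries, against 142, 156 and 148 CPM in Cre-negative libraries. The Cre-positive libraries held both the lowest values and the highest. The means were 141 ± 30.7 CPM in Cre-positive samples and 149 ± 6.79 CPM in Cre-negative samples (SD, n = 3 each), and the log2 fold change was -0.08 ± 0.16 (SE; edgeR adjusted p = 0.994). It was 0.04 without Cre-positive library 1 and -0.53 with effective transcript lengths as offsets.

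Stat5a, on chromosome 11, had 109.5, 102.5 and 103.0 CPM in Cre-positive libraries, against 98.4, 102.4 and 114.3 CPM in Cre-negative libraries. The Cre-positive values all lay within the range of the Cre-negative values. The group means were 105 ± 3.91 CPM in Cre-positive samples and 105 ± 8.26 CPM in Cre-negative samples (SD, n = 3 each; edgeR adjusted p = 0.999). The sign of its fold change had no firm direction, as it lay on either side of 0 when single libraries were left out (-0.05 to 0.06). With effective transcript lengths as offsets the log2 fold change was -0.38. Its mean transcript length was 3226, 3572 and 3459 bases in Cre-positive libraries, against 3210, 2524 and 2541 bases in Cre-negative libraries, without overlap.

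Stat5b, beside Stat5a on the same chromosome, had 140, 160 and 139 CPM in Cre-positive libraries, against 120, 118 and 121 CPM in Cre-negative libraries. All Cre-positive values lay above all Cre-negative values. The means were 146 ± 12.02 CPM in Cre-positive samples and 120 ± 1.57 CPM in Cre-negative samples (SD, n = 3 each), a ratio of 1.22. On the log2 scale the difference of 0.29 ± 0.11 (SE) did not pass after adjustment (edgeR adjusted p = 0.527) and stayed between 0.22 and 0.33 with any 1 library left out. In TPM the groups overlapped, with 47.5, 37.6 and 40.8 TPM in Cre-positive libraries, against 28.4, 39.95 and 29.8 TPM in Cre-negative libraries.

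The paralogs Stat5a and Stat5b were identical at 88.8% of 2394 aligned coding positions, with a longest identical run of 324 bases. Reads within identical stretches can also be split between these genes, and their share was not measured. The window with the most differences, coding bases 85 to 144 of both, is shown with its 19 mismatched bases in capitals (GENCODE M21 transcripts, GRCm38).
Stat5b-201: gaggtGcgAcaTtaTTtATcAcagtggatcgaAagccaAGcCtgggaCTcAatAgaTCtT
Stat5a-201: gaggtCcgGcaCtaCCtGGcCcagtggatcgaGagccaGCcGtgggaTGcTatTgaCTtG

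Summed, the pair had 250, 263 and 242 CPM in Cre-positive libraries, against 218, 221 and 235 CPM in Cre-negative libraries. The summed groups did not overlap, with means of 251 ± 10.6 CPM in Cre-positive samples and 225 ± 9.29 CPM in Cre-negative samples (SD, n = 3 each), but the difference did not pass (log2 fold change 0.16 ± 0.09 SE, edgeR adjusted p = 0.777). Stat5b took 56.2%, 61.0% and 57.4% of the pair's reads in Cre-positive libraries and 55.0%, 53.5% and 51.5% in Cre-negative libraries, again without overlap.

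**Figure D4:**
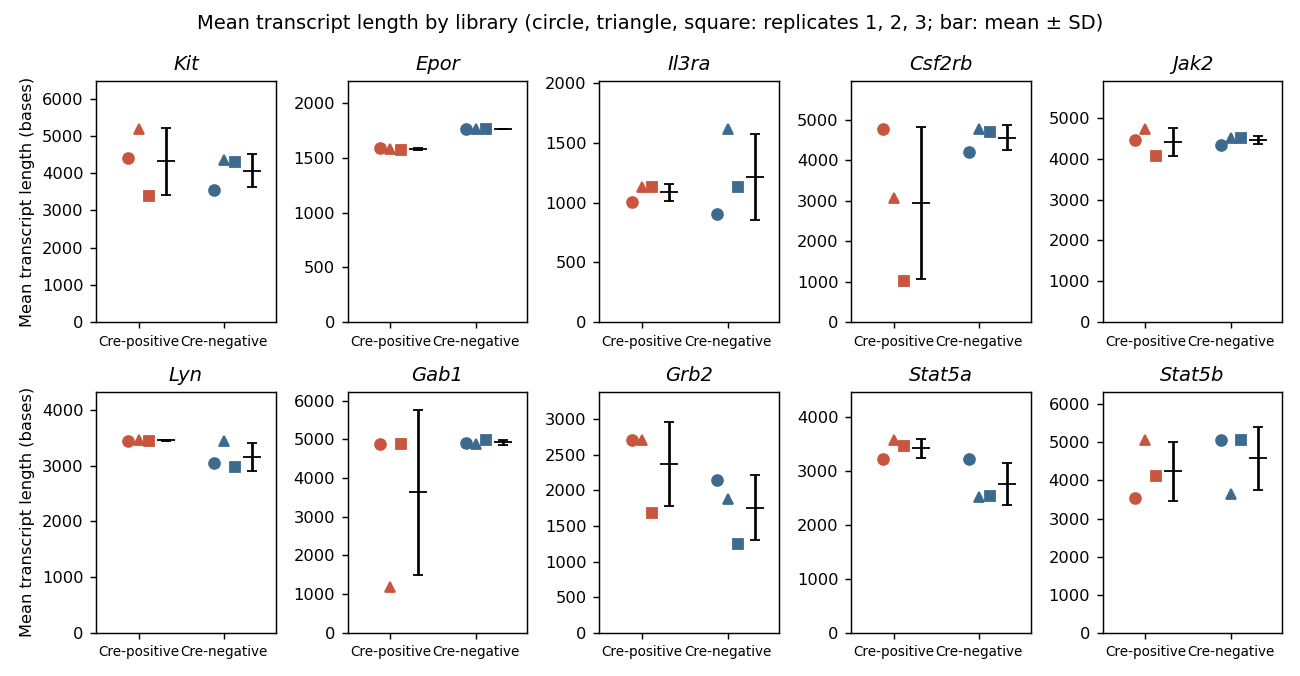
Mean transcript length in bases (y axes, starting at 0) of each of the 10 genes by library, Cre-positive on the left of each panel and Cre-negative on the right, with black bars for the mean ± SD. Groups do not overlap for Epor, shorter in Cre-positive libraries, nor for Lyn and Stat5a, longer there; Gab1 and Csf2rb each have 1 Cre-positive library far below the others.

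Over the 10 genes, 3 had groups that did not overlap in mean transcript length, 2 longer and 1 shorter in Cre-positive samples, where 8.49% of the 9167 genes compared were separated in this way. The 2 single-library departures, Gab1 at 1174 bases in Cre-positive library 2 and Csf2rb at 1016 bases in Cre-positive library 3, enter the TPM of those genes but not their CPM.

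The wider pathway was read from 109 other genes in 10 lists, of which 97 were tested. None of the 97 passed edgeR's test at an adjusted p of 0.05, and DESeq2 called 3, Csf2rb2, Il7r and Myc, all lower in Cre-positive samples. Over all genes the shares called were 0.122% in edgeR and 3.5% in DESeq2, so the 3 calls among 97 lay near that background. At an unadjusted p under 0.05 in edgeR, 3 were higher and 10 lower in Cre-positive samples, where 8.23% of all tested genes lay under that p, and the median log2 fold change was -0.08. The ligand genes Kitl, Epo, Il3, Csf2, Il5 and Thpo were at 0 reads in all 6 libraries.

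Of the 9 related receptors, 6 had Cre-positive values all below the Cre-negative values, all 6 with an unadjusted p under 0.05, and 0 passed after adjustment. Over all tested genes 15.2% were separated in either direction and 8.23% lay under that p; the difference of the list from other genes was not tested. The list's median log2 fold change was -2.07, and the same with Csf2rb2 and Il5ra at their bounds. Flt3, the cytokine receptor of early lymphoid and myeloid progenitors, had 7.04, 11.2 and 23.7 CPM in Cre-positive libraries, against 37.3, 44.7 and 94.1 CPM in Cre-negative libraries. Its log2 fold change was -2.07 ± 0.49 (SE; edgeR adjusted p = 0.234). Csf1r, the macrophage growth factor receptor, had 2.59, 2.95 and 0 CPM in Cre-positive libraries, against 28.5, 15.8 and 31.5 CPM in Cre-negative libraries. Il7r, the interleukin-7 receptor of lymphoid progenitors, had 0.821, 0.961 and 2.85 CPM in Cre-positive libraries, against 10.3, 6.40 and 15.2 CPM in Cre-negative libraries. Il5ra, at 0 in all Cre-positive libraries and at 85, 53 and 136 reads in Cre-negative libraries, was at least 30-fold lower with the same floor. The GM-CSF receptor chain Csf2ra overlapped between the groups (log2 fold change 0.16 ± 0.50 SE). The lower receptors moved with the summed neutrophil, monocyte and lymphoid markers given above, and Flt3, Csf1r, Csf3r and Il7r are themselves on those marker lists; the part of such cells in these values was not tested.

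Among the STAT5 targets, 12 of 15 were tested, with 1 higher, 1 lower and 10 neither at an unadjusted p under 0.05. Myc, a growth-promoting transcription factor, had 286, 254 and 232 CPM in Cre-positive libraries, against 337, 367 and 338 CPM in Cre-negative libraries. All Cre-positive values were lower, by a log2 fold change of -0.43 ± 0.10 (SE; edgeR adjusted p = 0.225), the smallest adjusted p in the 10 lists. Ccnd2, which encodes cyclin D2, had 264, 236 and 205 CPM in Cre-positive libraries, against 202, 195 and 171 CPM in Cre-negative libraries, all higher in Cre-positive samples (log2 fold change 0.31 ± 0.12 SE, edgeR adjusted p = 0.531). Cish, a feedback inhibitor induced by STAT5, had 125, 367 and 374 reads in Cre-positive libraries, against 43, 0 and 0 reads in Cre-negative libraries. The groups did not overlap, but counts were low and the difference did not pass (edgeR adjusted p = 0.800). The targets Pim1 and Bcl2l1 overlapped, with log2 fold changes of 0.06 and -0.16.

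Among 18 negative regulators 16 were tested, none with an unadjusted p under 0.05. Sh2b3, which encodes the JAK2 inhibitor LNK, had 26.8, 23.4 and 50.03 CPM in Cre-positive libraries, against 40.7, 50.5 and 71.4 CPM in Cre-negative libraries (log2 fold change -0.70 ± 0.33 SE, edgeR adjusted p = 0.648). In the RAS and MAPK list 1 of 12 lay under that p, Nras, with 64.5, 76.5 and 69.5 CPM in Cre-positive libraries, against 87.6, 86.1 and 99.4 CPM in Cre-negative libraries. In the PI3-kinase, phospholipase and AKT list 2 of 14 did so. Plcg2 had 54.2, 49.4 and 102 CPM in Cre-positive libraries, against 133, 97.8 and 222 CPM in Cre-negative libraries, and Pik3cg had 24.8, 21.5 and 26.0 CPM in Cre-positive libraries, against 54.0, 21.1 and 58.7 CPM in Cre-negative libraries. Both genes overlapped between the groups.

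Of 13 tested adaptors and exchange factors, 1 lay under an unadjusted p of 0.05: Irs2, an insulin receptor substrate, with a log2 fold change of 0.63 ± 0.26 (SE; edgeR adjusted p = 0.559). The exchange factor Vav1 had -0.35 ± 0.20. The phosphatase gene Ptpn11, which encodes SHP2, was nearly equal at 250 ± 1.84 CPM in Cre-positive samples and 246 ± 20.3 CPM in Cre-negative samples (SD, n = 3 each). None of 9 tested Src family and other tyrosine kinases lay under that p, with Btk at -0.42 ± 0.23 and Fes at -1.42 ± 0.91. None of the 5 other STAT genes did either, with Stat2 at -0.61 ± 0.37 and Stat4 at -1.21 ± 0.83.

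Of the 9 transcription factors that regulate Kit and Epor, 1 lay under that p and 2 did not overlap. Over all tested genes 8.23% lay under that p and 15.2% did not overlap, in either direction, and the difference of this list from other genes was not tested. Zfpm1, which encodes the GATA1 partner FOG1, had 676, 582 and 536 CPM in Cre-positive libraries, against 520, 510 and 399 CPM in Cre-negative libraries, all higher in Cre-positive samples (log2 fold change 0.33 ± 0.12 SE, edgeR adjusted p = 0.505). Lmo2, a bridging protein of the same complexes, had 373, 364 and 377 CPM in Cre-positive libraries, against 323, 356 and 314 CPM in Cre-negative libraries. Gata1 and Gata2 overlapped, with log2 fold changes of 0.07 ± 0.18 and -0.18 ± 0.26 (SE).

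**Figure D5:**
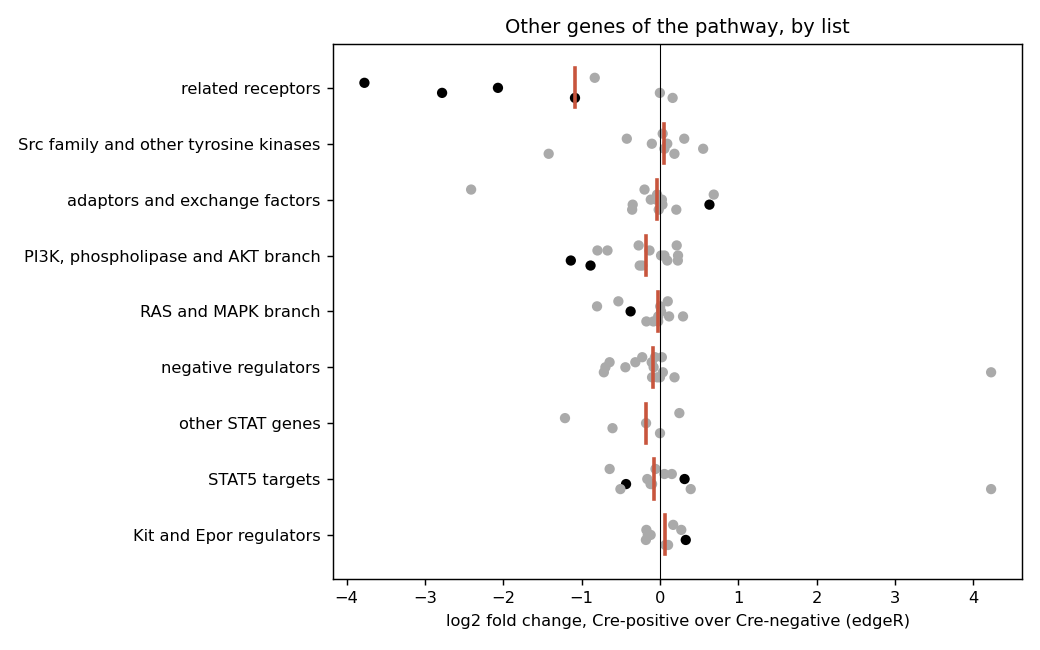
Log2 fold change, Cre-positive over Cre-negative (x axis), of each tested gene of 9 pathway lists; black points have an unadjusted p under 0.05, none passes after adjustment, and red bars are medians of the plotted genes. The related receptors lie to the left of 0; Csf2rb2 and Il5ra, at 0 in all Cre-positive libraries, are not drawn, so that list's red bar stands at -1.09 for 7 genes. The point at 4.23 is Cish, which is on both the negative regulator and the STAT5 target lists.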

How the data were processed

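RNA was extracted from sorted cells with a micro-scale column kit, and a stranded kit for very low input of total RNA was used for sequencing libraries, per the labels' protocols. STAR 2.5.3a, RSEM 1.3.0 and the build GRCm39 are named in the submitters' processing notes. Which annotation and which strand setting were used is not stated there. Each table deposited by the authors holds, for every gene, an expected count estimated by RSEM, TPM, FPKM and mean transcript lengths, per the file headers. The deposited TPM values were used for levels between genes, and the deposited FPKM values were not used. Identifiers were matched to symbols in GENCODE M21 (52081 of 55359), with no coordinates taken from it. Mean lengths of 31225 of 31330 single-transcript genes matched M21 within 0.01 base.

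Expected counts were rounded (2.64% were not whole), filtered with filterByExpr (13117 genes kept), scaled by TMM (factors 0.988 to 1.017) and fitted across all 6 libraries with edgeR 4.0.16's quasi-likelihood test in R 4.3.3, Cre-positive over Cre-negative, with Benjamini-Hochberg adjustment and a threshold of 0.05. CPM used the TMM-scaled totals. The common biological coefficient of variation was 85.4%. DESeq2 1.42.0, limma 3.58.1 (voom), other scalings and filters, length offsets, a replicate block, summed paralogs and leaving out each library were alternatives. P-values set the difference between groups against the spread between samples within each group. Litters were not in the main fit, as the labels do not say which numbers share one. The steps were tested on simulated data. Coding identity came from global alignment of M21 transcripts. The named genes were all 10 members, Csf2rb2, Exosc3 and, of each list, genes called or else the 2 with the smallest p, apart from some that are not reported here; the other pathway and marker genes named were chosen after their values were seen. The members and lists were chosen with earlier results of these data known. The eGFP entry was named after its value was seen.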

Additional observations from a re-analysis of the deposited data

How the results depend on the processing

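None of the 10 genes was called under any of 15 alternatives, and their lowest adjusted p was 0.120 (Gab1, DESeq2). The count of calls over all genes did move from 16 higher and 0 lower: DESeq2 gave 453 (235 higher, 218 lower), no filter 39 (33 and 6), a mean of at least 100 counts 26 (3 lower), effective length offsets 6 (6 higher), and leaving out 1 library 7 to 16 (7 to 15 higher, 0 to 3 lower; 9 calls without Cre-positive library 1 and 7 without Cre-positive library 2). The replicate block gave 56 calls (38 higher, 18 lower), 16 of them shared with the fit without it. Same-numbered samples correlated at 0.026, 0.053 and 0.073 after removing group means, none over 0.1. Every library correlated best with its own number, which is a hint from the data and not from the design. The members' median of 0.02 ran from -0.03 to 0.11 with 1 library left out, the highest without Cre-positive library 3. Directions held for 6 of the 10 genes. Length offsets turned Csf2rb to 1.46 and Il3ra to -0.12, the summed pair gave 0.16 in place of Stat5a, and the block left Stat5a at 0.00. With 1 library left out, Il3ra ran from -0.32 to 1.10, Grb2 from -0.27 to 0.04 and Stat5a from -0.05 to 0.06. Length offsets moved Grb2 and Stat5a further, to -0.53 and -0.38. The cause was not tested. Voom gave Csf2rb -2.91. The Epor-202 share was also 16.6% with effective in place of mean length, an alternative chosen after seeing the data. Both lengths come from the same assignment of reads to transcripts, so this alternative could not differ and is no check of the share. Csf2rb2 passed under DESeq2, with a log2 fold change of -10.84 that is no bound. With 3 samples a group and this spread, small changes of low genes such as Il3ra were not detectable.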

Other observations

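The genes whose log2 CPM followed Kit most closely over the 6 libraries were Otulinl (Pearson r = 0.998), Cotl1 (r = 0.996) and Nfatc1 (r = 0.988), among 12229 genes compared, of which 44 lay over 0.95. For Epor they were Oaf, Ppan and Odc1 (r = 0.989 each), with 29 genes over 0.95. Cotl1 encodes an actin-binding protein, Nfatc1 a transcription factor, Ppan a ribosome biogenesis factor and Odc1 ornithine decarboxylase. The 6 points share their groups and library depth, so these values are a description only.

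Of the 12 erythroid progenitor markers, 11 were tested, and Car2, which encodes carbonic anhydrase 2, was called higher in Cre-positive samples (edgeR adjusted p = 0.00787). It had 538, 502 and 408 CPM in Cre-positive libraries, against 239, 236 and 205 CPM in Cre-negative libraries. The summed list ran from 1903 to 2440 CPM in Cre-positive samples and from 1623 to 1990 CPM in Cre-negative samples. Megakaryocyte markers summed to 62.4 to 105 CPM in Cre-positive samples and to 54.7 to 91.7 CPM in Cre-negative samples.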
